A study of Homo sapiens with 6 samples.

Results

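RNA of the cytosolic ribosomal proteins and of the translation factors named EIF and EEF was examined, with and without GABA (gamma-aminobutyric acid), in cells of the liver cancer line Huh7, which was established from a human hepatocellular carcinoma. The members were taken by name from the protein-coding genes of the count tables: RPL or RPS plus a number with an optional paralog ending, RPLP plus a number, RPSA, and every symbol that starts with EIF or EEF. This gave 54 genes of the 5187 listed, 31 ribosomal protein genes and 23 EIF or EEF genes. GENCODE release 29 holds 86 and 72 protein-coding genes that fit the same names, so 55 and 49 are not analysed here. The labels give 3 control libraries, from cells without GABA, and 3 libraries from cells kept with GABA for 24 h, all in DMEM with fetal bovine serum, and each library is a biological replicate. All libraries come from 1 cell line, and the labels give neither the GABA dose nor a vehicle. The comparison asks which transcripts change when these liver cancer cells are given GABA.

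The listed genes are a selection that follows this same comparison. Over the 4981 genes that passed the filter on low counts, 98.7% differed between the groups at an adjusted p under 0.05 (edgeR, quasi-likelihood test), 47.6% higher and 51.2% lower with GABA. A call is therefore not a result about a member, and direction and size are what the values describe. Counts on the listed genes summed to 7702666 to 8392945 per library. CPM values below are counts per 1000000 of that sum after TMM scaling, so they are relative levels. Less of a transcript per cell, fewer cells that hold it and more of the other transcripts cannot be told apart. Control replicate 3 stood apart from the other control libraries, and its mitochondrially encoded transcripts took 9.11% of counts, against 6.66% to 7.74% in the other 5 libraries. Of 9 hepatocyte markers none is listed, of 4 endothelial and 5 immune markers none, and of 6 fibroblast markers 2, which summed to at most 0.00685% of counts in any library, so the labelled cell type could not be checked on these genes.

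The ribosome has a small 40S subunit, which reads the mRNA, and a large 60S subunit, which joins the amino acids, and each of its proteins is normally made in step with the others. Initiation factors (eIF) bring the initiator tRNA and the mRNA to the 40S subunit and find the start codon, and elongation factors (eEF) then deliver the other tRNAs. Ribosomal protein mRNAs commonly begin with a run of pyrimidines, the 5′ terminal oligopyrimidine tract, through which growth signalling by mTORC1 controls their translation.

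Transcripts of the listed ribosomal proteins were mostly lower with GABA, by small amounts, while the listed translation factors moved both ways. Of the 31 ribosomal protein genes, all tested, 24 fell, 3 rose and 4 did not pass, with a median log2 fold change of -0.27 (GABA over control). Of the 23 factor genes, all tested, 12 fell, 9 rose and 2 did not pass, with a median of -0.18, the same to 2 decimals as that of all tested genes. The balance depended on the scaling: with DESeq2 size factors in edgeR, 19 ribosomal genes fell and 3 rose, 9 factor genes fell and 10 rose, and of all tested genes 2050 fell and 2373 rose. The largest fall among the members was that of EIF5, at -0.58, and the largest rise that of RPL26L1, at 0.46. The groups did not overlap in 27 of the 31 ribosomal genes and 20 of the 23 factor genes, beside 92.5% of all tested genes (46.7% with GABA wholly lower and 45.8% wholly higher). Leaving out each library in turn, 16 of the 24 falls and 1 of the 3 rises of ribosomal genes kept their call in all 6 fits, as did 7 of the 12 falls and 3 of the 9 rises of factor genes. Without GABA replicate 3, the count of factor genes called was 13 (5 higher and 8 lower) instead of 21. In that fit 4071 of 5013 tested genes were called, instead of 4918 of 4981. The share of all tested genes that kept their call in all 6 fits was not taken, so these counts do not set the members apart.

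**Figure D1:**
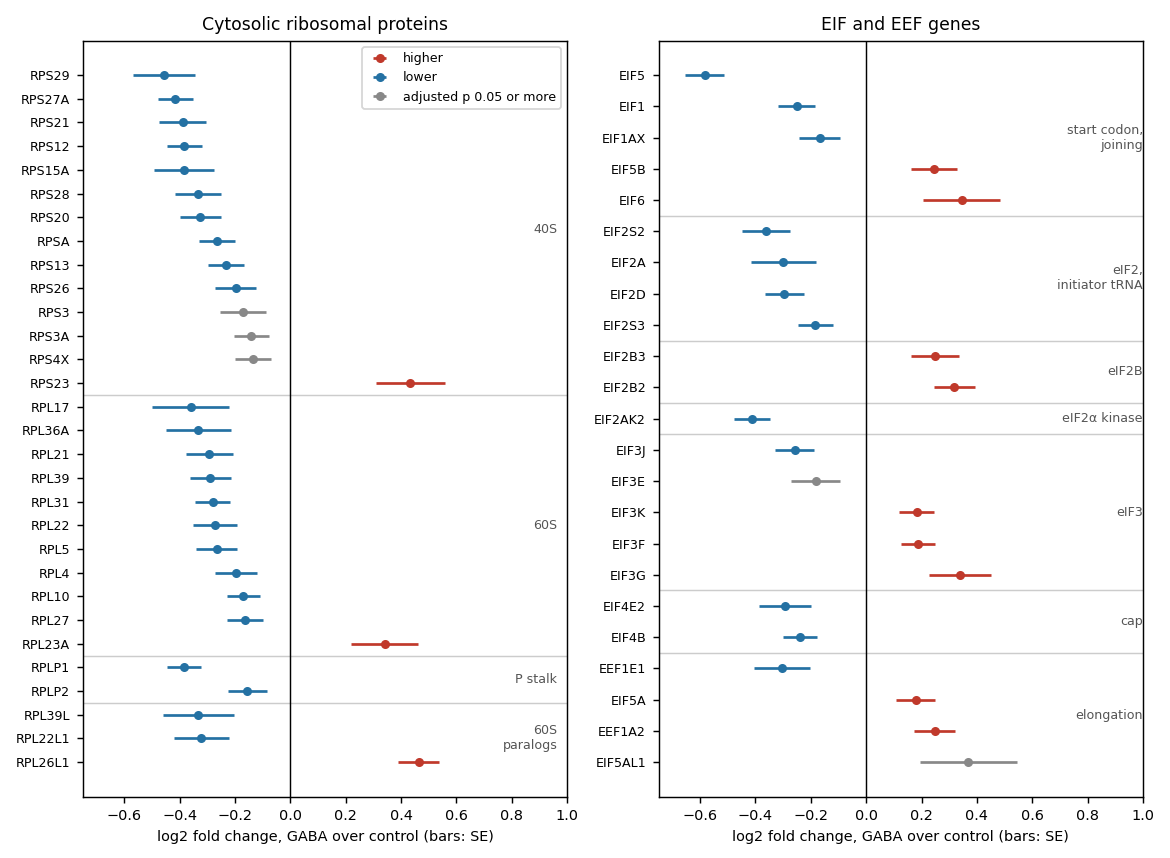
Log2 fold change of each member, GABA over control, with its standard error from the edgeR fit; left the ribosomal protein genes, without 1 that is not reported, right the 23 EIF and EEF genes, grouped by role. Red points are higher, blue points lower and grey points did not pass an adjusted p of 0.05. Among the ribosomal genes only RPS23, RPL23A and RPL26L1 lie right of 0, while the factors lie on both sides, from -0.58 for EIF5 to 0.37 for EIF5AL1.

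The 31 ribosomal genes together took 4.23%, 4.31% and 4.39% of counts in control replicates 1, 2 and 3 and 3.84%, 3.83% and 3.61% in GABA replicates 1, 2 and 3. All GABA libraries lay below all controls, a difference of -0.55 percentage points (exact permutation test, two-sided, p = 0.10, the smallest that 3 against 3 libraries can give). The 23 factor genes took 1.30%, 1.28% and 1.30% in the controls and 1.20%, 1.23% and 1.18% with GABA (p = 0.10 by the same exact permutation test). Both the members and the total come from the genes preselected by this comparison, so neither separation is independent evidence of a change. The 55 ribosomal protein genes that are not listed do not enter the share.

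Start sites are given for the 8 members with the smallest p that have an entry in RefSeq, as 15 bases before and 15 after the start of transcription on GRCh38.p14, 5′ to 3′ on the gene's strand, because many ribosomal mRNAs share a pyrimidine tract there. Where a gene has several annotated starts, the one nearest the start of its principal GENCODE transcript was taken. Capitals mark the longest run of C and T in each window.
RPS27A: cccgtgggcctgcgcggcgTTCTTCCTTTT
RPLP1: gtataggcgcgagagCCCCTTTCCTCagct
RPS12: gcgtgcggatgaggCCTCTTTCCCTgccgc
RPS21: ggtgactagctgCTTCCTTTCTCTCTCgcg
RPL31: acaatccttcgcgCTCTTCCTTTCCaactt
RPL26L1: ggcggggcggcggccacaaaCCCgcaggca
EIF5: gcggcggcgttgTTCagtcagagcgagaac
EIF2AK2: gTCCaaggggaaaacgaaactgagaaccag
The windows lie at chr2:55232663-55232692, chr15:69452803-69452832, chr6:132814554-132814583, chr20:62387088-62387117, chr2:101002274-101002303, chr5:172958865-172958894 and chr14:103334222-103334251 on the plus strand and at chr2:37156966-37156995 on the minus strand. The 5 ribosomal genes that fell have runs of 11, 11, 11, 15 and 12 bases, against 3 bases each in RPL26L1, which rose, and in EIF5 and EIF2AK2, which fell. RPL26L1 and EIF5 each have 2 annotated starts, and the longest run at any of them was 6. A match of letters is a description of the sequence, not a tested site. A run of at least 8 pyrimidines on the sense strand was found in 20 of the 25 ribosomal members with an entry (80.0%) and in 33 of the 44 annotated ribosomal genes with an entry that are not listed (75.0%). The share was 5 of 19 (26.3%) in the factor members, 19.8% in listed protein-coding genes and 16.5% in all 27305 RefSeq genes with an entry. By direction, the run was found in 18 of 20 ribosomal genes that fell, in 1 of 2 that rose and in 1 of 3 that did not pass. The genes that fell without it were RPS29, with the largest fall of the ribosomal members in the fit on all libraries and a longest run of 4, and RPL27, with 5. Runs were counted only inside a window. Those of RPS29, RPL27 and RPS27A reach its edge, so their lengths are lower limits. Outside the rule for the other windows, and chosen after their values were seen, RPS23, which rose with a long run, and RPS29 are shown as cases that differ from the 5 above:
RPS23: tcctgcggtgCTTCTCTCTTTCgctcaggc
RPS29: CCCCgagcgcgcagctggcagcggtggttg
The windows lie at chr5:82278340-82278369, with a run of 12, and at chr14:49598696-49598725, both on the minus strand. The motif CCGGAAG, an ETS factor site, was searched on both strands of the 300 bases from 250 before to 50 after the start and was found in 7 of 25 ribosomal members (28.0%), 6 of 19 factor members (31.6%), 19.8% of listed protein-coding genes and 12.2% of all RefSeq genes. The motif AAGATGG, a YY1 site, was found in 4 of 25 (16.0%), 4 of 19 (21.1%), 8.29% and 7.11% in the same order. Of the 44 annotated ribosomal genes with an entry that are not listed, CCGGAAG was found in 38.6% and AAGATGG in 11.4%. In the annotated EIF and EEF genes with an entry that are not listed, these shares were 25.6% and 5.13%. The motif TATAA, searched in the same bases, was found in 6 of 25 ribosomal members (24.0%) and 3 of 19 factor members (15.8%). Its share was 16.4% in listed protein-coding genes and 24.2% in all RefSeq genes. In the annotated genes that are not listed it was 18.2% for ribosomal and 20.5% for EIF and EEF genes. A gene was counted when any of its annotated starts held the letters, and the 3 motifs were searched separately.

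Proteins of the 40S subunit were lower in 10 of 15 genes, with a median of -0.26, 1 was higher and 4 did not pass. The smallest p belonged to RPS27A (ENSG00000143947, chromosome 2, 55231903 to 55235853 in GENCODE release 29, on GRCh38), which encodes a small subunit protein fused to ubiquitin. Its level was 2174, 2174 and 2325 CPM in control replicates 1, 2 and 3 and 1761, 1658 and 1583 in GABA replicates 1, 2 and 3. The 3 GABA libraries lay well below every control, at a log2 fold change of -0.42 ± 0.06 (SE, adjusted p = 2.2e-04, edgeR), about 0.75 times the control level. RPS12 (ENSG00000112306, chromosome 6, 132814441 to 132817564 in GENCODE release 29), a 40S protein whose gene holds 3 annotated snoRNAs, had 1473, 1488 and 1440.2 CPM in the controls and 1203, 1117 and 1053 with GABA. Its groups were as clearly apart, with the controls close together (-0.38 ± 0.06, adjusted p = 3.8e-04, edgeR). RPS21 had 629.5, 708 and 653 CPM in the controls and 544, 540.4 and 435 with GABA (-0.39 ± 0.09, adjusted p = 0.0021, edgeR), and GABA replicate 3 was the lowest. RPS20, a protein of the head of the subunit, had 1283, 1375 and 1519 CPM against 1137, 1168 and 1028 (-0.33 ± 0.07, adjusted p = 0.0025, edgeR).

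Other 40S members fell by similar amounts. RPS29, a small zinc-binding protein, had the largest fall in the subunit in the fit on all libraries, from 308 ± 41.8 to 224 ± 31.7 CPM (SD, n = 3). The log2 fold change of RPS29 was -0.46 ± 0.11 with an adjusted p of 0.0034 (edgeR). Control replicate 3 was its highest library, at 356 CPM, and GABA replicate 3 its lowest, at 188. Without either library RPS29 was at -0.34, and without control replicate 3 RPS15A had a larger fall, at -0.52. RPSA, also known as the laminin receptor precursor, fell from 4149 ± 209 to 3454 ± 161 CPM, at -0.26 ± 0.06. RPS13 and RPS15A also fell, at -0.23 ± 0.06 and -0.38 ± 0.11. In RPS15A control replicate 3, at 137 CPM, lay below the other controls (176 and 196) and near the GABA libraries (127 to 134), and the log2 fold change was -0.52 without it. RPS26, which contacts mRNA just upstream of the start codon, was at -0.20 ± 0.07 (adjusted p = 0.022, edgeR). The value of RPS26 was -0.11 without control replicate 3, and its adjusted p was 0.061, 0.053 and 0.08 without GABA replicate 1, 2 or 3. RPS28 fell as well, and is described with its pseudogene among the near-copies.

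Among the 40S members that did not pass, RPS3, at the mRNA entry, RPS3A and RPS4X had log2 fold changes of -0.17, -0.14 and -0.14, with adjusted p of 0.063, 0.051 and 0.059 (edgeR). The groups overlapped in RPS3 and did not overlap in RPS3A and RPS4X, and these 3 calls changed in some fits that left out 1 library. Without control replicate 3, RPS3 passed at -0.27, while without control replicate 2 it was at -0.10 (adjusted p = 0.22, edgeR). RPS3A passed without control replicate 2, at -0.18, and was at -0.09 without control replicate 3 (adjusted p = 0.079). RPS4X passed without control replicate 1 or 2, at -0.17 and -0.17, and was at -0.07 without control replicate 3 (adjusted p = 0.11).

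RPS23, which sits at the decoding centre, was the 40S member that rose. Its CPM were 216, 335 and 302 in the controls and 361, 408 and 383 with GABA, at 0.43 ± 0.12 (adjusted p = 0.0075, edgeR). The groups did not overlap, but control replicate 1 lay far below the other 2 controls. Without that library the log2 fold change was 0.27 (adjusted p = 0.016, edgeR), and without control replicate 3 it was 0.48 and did not pass (adjusted p = 0.12).

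**Figure D2:**
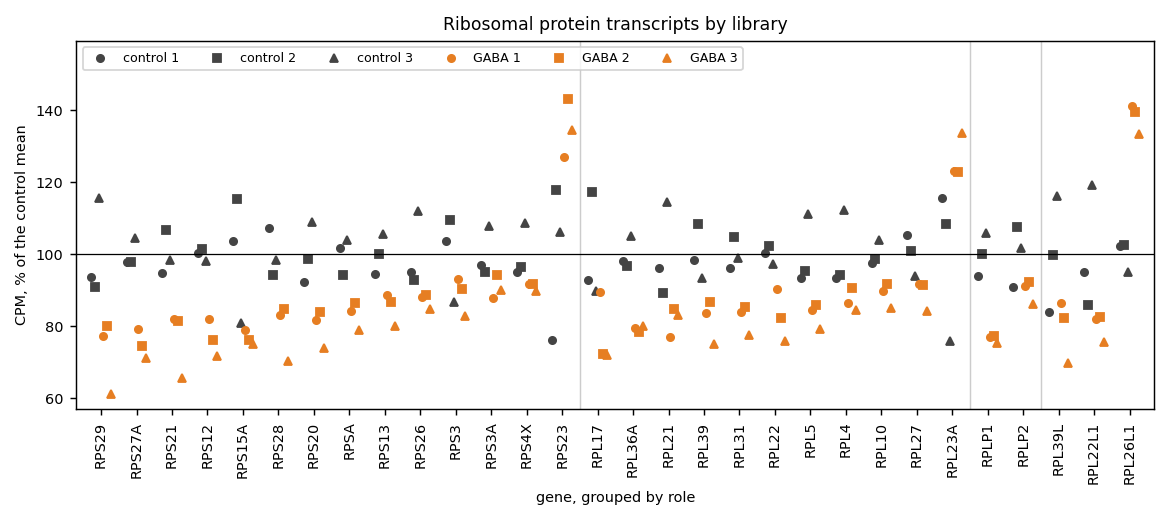
Level of each reported ribosomal protein transcript in each library as a percentage of its control mean (CPM); dark points are the 3 control and orange points the 3 GABA libraries, with 1 symbol per replicate number, and vertical lines separate the 40S, 60S, P stalk and 60S paralog groups. The GABA points lie below all control points for most genes and above them for RPS23, RPL23A and RPL26L1, and control replicate 3 stands far from the other controls in several genes, such as RPL23A and RPL22L1.

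The 60S subunit showed the same direction, with 10 of 11 core genes lower, 1 higher and a median of -0.27. RPL31 (ENSG00000071082, chromosome 2, 101001715 to 101024032 in GENCODE release 29), next to the exit of the peptide tunnel, had 849, 927 and 874 CPM in the controls and 742, 755 and 684 with GABA, with no overlap (-0.28 ± 0.06, adjusted p = 0.0023, edgeR). RPL39, a very small protein inside that tunnel, had 724, 798 and 687 CPM in the controls and 616, 639 and 553 with GABA (-0.29 ± 0.07, adjusted p = 0.0045). For RPL5, which carries the 5S rRNA into the subunit and can bind MDM2, the CPM were 2990.0, 3054 and 3563 in the controls and 2703, 2749 and 2534 with GABA (-0.27 ± 0.07, adjusted p = 0.0066). All GABA libraries lay below all controls in these 3 genes. RPL21, whose gene holds 2 annotated snoRNAs, had 697, 647 and 831 CPM against 558, 615 and 602 (-0.29 ± 0.09, adjusted p = 0.0081, edgeR), and -0.19 without control replicate 3. RPL22, which also binds viral and cellular RNAs outside the ribosome, fell by 0.27 on the log2 scale.

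Several 60S calls were lost when 1 library was left out, in fits that also had fewer samples. Without GABA replicate 1, for instance, 4025 of 5015 tested genes were called, instead of 4918 of 4981. RPL4, which lines the peptide tunnel, had -0.20, then -0.11 without control replicate 3, and did not pass without GABA replicate 1 or 3 (adjusted p = 0.084 and 0.092, edgeR). RPL10, which completes the maturing 60S subunit, had -0.17, and its adjusted p rose to 0.057 and 0.085 without GABA replicate 1 or 3. Of the exon bases of RPL10, 55.5% overlap other genes, mostly on the opposite strand, and whether counting used the strand is not given in the sources used here. RPL27 had -0.16 and did not pass without control replicate 1 or without any 1 of the GABA libraries (adjusted p = 0.11, 0.057, 0.055 and 0.13).

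RPL23A, at the tunnel exit, was the core 60S gene that rose. It had 1038, 973 and 683 CPM in the controls and 1105, 1105 and 1202 with GABA, and control replicate 3 stood at 0.68 times the mean of the other controls. The log2 fold change was 0.34 ± 0.12 (adjusted p = 0.018, edgeR), and 0.17 without control replicate 3. Without GABA replicate 3 it was 0.30 and did not pass (adjusted p = 0.068).

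The P stalk, the flexible arm of acidic proteins that recruits the elongation GTPases, was lower in both listed members. RPLP1 (ENSG00000137818, chromosome 15, 69452784 to 69456194 in GENCODE release 29) had 1526, 1627 and 1719 CPM in control replicates 1, 2 and 3 and 1250.4, 1253 and 1225 in GABA replicates 1, 2 and 3. The GABA libraries were nearly equal to each other and below all controls (-0.39 ± 0.06, adjusted p = 3.1e-04, edgeR). Its partner RPLP2 had 799.6, 946 and 895 CPM against 802, 812 and 758, with control replicate 1 below GABA replicates 1 and 2. The fold change of RPLP2 was smaller, at -0.16 ± 0.07 (adjusted p = 0.046), and did not pass without control replicate 2 (-0.10, adjusted p = 0.16) or without any 1 of the GABA libraries (adjusted p = 0.096, 0.077 and 0.16).

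Paralogs of core proteins, encoded by separate genes, went in different directions. RPL26L1 (ENSG00000037241, chromosome 5, 172958729 to 172969771 in GENCODE release 29), a paralog of RPL26, had 102, 102 and 94.5 CPM in the controls and 140.3, 139 and 133 with GABA. Every GABA library was above every control, with a fitted fold of 1.38, at 0.46 ± 0.07 (adjusted p = 3.2e-04, edgeR), and the rise passed in all 6 fits that leave out a library. RPL22L1, the paralog of RPL22, had 1047, 945 and 1313 CPM against 904, 909 and 832 (-0.32 ± 0.10, adjusted p = 0.011), and -0.18 without control replicate 3. RPL22 itself, the core protein, fell too, from 141 ± 3.41 to 116 ± 10.1 CPM. RPL39L, a paralog of RPL39, had 53.2, 63.3 and 73.6 CPM in the controls and 54.7, 52.1 and 44.3 with GABA, with overlapping groups (-0.33 ± 0.13, adjusted p = 0.025). That value was -0.21 without control replicate 3, and it did not pass without GABA replicate 2 or 3 (adjusted p = 0.051 and 0.12, edgeR). RPL26 is not among the genes analysed here, so no ratio of RPL26L1 to RPL26 can be given.

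Near-copies limit some of these values. Ribosomal protein genes have many processed pseudogenes, reads can be assigned to either copy, and 14 tested pseudogenes are named for a member. In 11 of the 14 the pseudogene had the same sign as its parent, as for RPL10P16 (-0.32), EIF2S2P4 (-0.43) and RPS3AP6 (-0.47). Without control replicate 3 RPL10P16 was at -0.21, and EIF2S2P4 did not pass without GABA replicate 3 (adjusted p = 0.074, edgeR). The 3 of opposite sign were RPS28P7, RPL36AP37 and RPSAP52. RPS28, a small 40S protein, had 423, 371 and 387 CPM in the controls and 327, 334 and 277 with GABA (-0.33 ± 0.08, adjusted p = 0.0037, edgeR), whereas RPS28P7 had 223, 306 and 192 CPM in the controls and 301, 315 and 331 with GABA. The rise of RPS28P7, 0.39 ± 0.13, was 0.26 without control replicate 3 and 0.60 without control replicate 2, and did not pass without control replicate 3 or GABA replicate 3 (adjusted p = 0.17 and 0.052). The sum of the 2 was 646, 677 and 580 CPM in the controls and 628, 649 and 607 with GABA, with overlapping groups and a log2 fold change of -0.01 ± 0.07 (adjusted p = 0.84, edgeR). RPL36A, of the 60S subunit, fell from 25.0 ± 1.14 to 19.9 ± 0.215 CPM (SD, n = 3), but RPL36AP37 stood at 286 and 342 CPM in the means of the groups, and their sum rose by 0.22 ± 0.07 (adjusted p = 0.011, edgeR). Without GABA replicate 2, RPL36A itself did not pass (adjusted p = 0.052).

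RPL17 had a lower count than its own pseudogene, 32.0 against 66.1 CPM in the controls, and 35.3% of its exon bases overlap other genes. Such overlap was also 24.2% in EIF4E2, 23.6% in EIF2B2, 21.4% in RPS28, 18.7% in EEF1E1 and 17.4% in EIF6. The fall of RPL17, -0.36 ± 0.14, did not pass without control replicate 2 (-0.23, adjusted p = 0.12, edgeR) or without GABA replicate 2 or 3 (adjusted p = 0.09 and 0.096). Summed with RPL17P7 it was at -0.46 ± 0.09 (adjusted p = 9.6e-04). For RPL5, RPL10, RPL21, RPL22, RPL4, RPS12, RPSA, EIF1AX, EIF2S2 and EIF4B the sums with listed pseudogenes kept the direction and the call, and RPS3A passed when summed, at -0.16 (adjusted p = 0.035, edgeR).

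**Figure D3:**
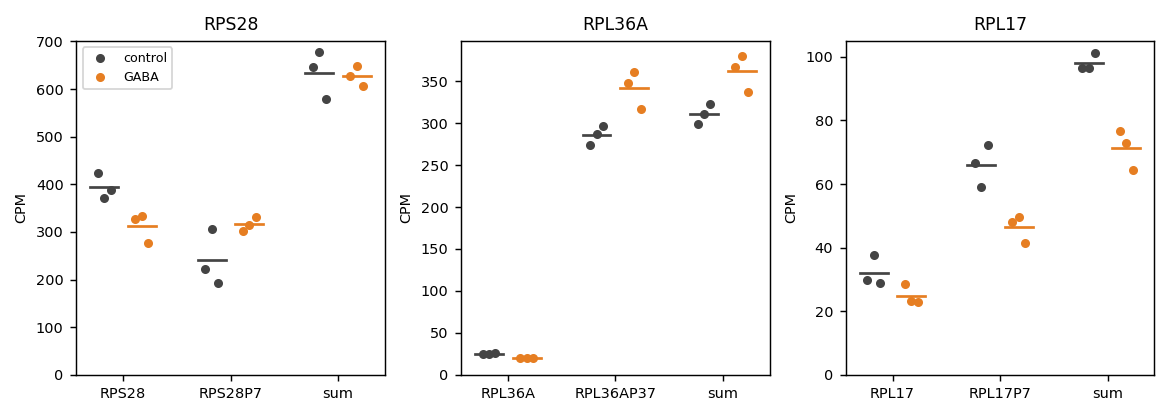
Level in CPM of RPS28, RPL36A and RPL17, of 1 listed pseudogene of each, and of their sum, by library; dark points are control and orange points GABA libraries, and short lines are group means. RPS28 and RPS28P7 move in opposite directions and their sum overlaps between the groups, the sum for RPL36A follows its far higher pseudogene, and both copies of RPL17 are lower with GABA.

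Per kilobase of the principal transcript, the ribosomal members that fell ranged in the controls from 37.3 CPM per kilobase for RPL17 to 3543 for RPSA. RPS12, with 2325 CPM per kilobase, and RPS29, with 455, fell by 0.38 and 0.46 on the log2 scale. The 3 that rose had 82.8 (RPS23), 134 (RPL26L1) and 575 (RPL23A) CPM per kilobase. These lengths are annotated, not measured, and an unused long transcript lowers the value. The 54 members lie on 19 chromosomes. Introns or exons of 17 members hold a total of 39 annotated small nucleolar RNAs on the same strand, in 11 of the 24 ribosomal genes that fell, 1 of the 3 that rose and 3 of the 4 that did not pass.

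Of the 5 factors of start codon selection and subunit joining, 3 fell (EIF5, EIF1 and EIF1AX) and 2 rose (EIF5B and EIF6). EIF5 (ENSG00000100664, chromosome 14, 103333544 to 103345025 in GENCODE release 29), the GTPase-activating partner of eIF2 that triggers release of the initiator tRNA, had 949, 874 and 1039.6 CPM in control replicates 1, 2 and 3 and 658, 633 and 619 in GABA replicates 1, 2 and 3. The GABA libraries were close to each other and all far below the controls, at -0.58 ± 0.07 (adjusted p = 5.0e-05, edgeR), about 0.67 times the control level. EIF1, which keeps the scanning ribosome from pausing at wrong codons, had 2315, 2365 and 2513 CPM in the controls and 2042, 2145 and 1854 with GABA (-0.25 ± 0.07, adjusted p = 0.0056). EIF1AX, its companion in scanning, had -0.17, which did not pass without control replicate 3 (-0.09, adjusted p = 0.08, edgeR) or without any 1 of the GABA libraries (adjusted p = 0.12, 0.065 and 0.15).

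EIF5B, the GTPase that joins the subunits, and EIF6, which keeps free 60S subunits apart from 40S, rose. EIF5B had 270.2, 229 and 289 CPM in the controls and 299.7, 309 and 326 with GABA (0.25 ± 0.08, adjusted p = 0.016, edgeR). Its rise did not pass without control replicate 2 (0.15, adjusted p = 0.058) or without GABA replicate 3 (adjusted p = 0.068). EIF6 had 313, 336 and 203 CPM against 379, 349 and 355 (0.35 ± 0.14, adjusted p = 0.031). In EIF6 control replicate 3 was 0.63 times the mean of the other controls, and without it the log2 fold change was 0.15 (adjusted p = 0.01). Without GABA replicate 1, 2 or 3, EIF6 did not pass (adjusted p = 0.097, 0.055 and 0.067, edgeR).

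The listed subunits of eIF2, the factor that carries the initiator tRNA, were lower, as were EIF2D and EIF2A, which are separate proteins. Both listed subunits of eIF2B, which reloads eIF2 with GTP, were higher. EIF2S1, the alpha subunit of eIF2, and EIF2B1, EIF2B4 and EIF2B5 are not among the genes analysed here. EIF2S2, the beta subunit, had 741, 692 and 903 CPM in the controls and 619, 615 and 585 with GABA (-0.36 ± 0.09, adjusted p = 0.0033, edgeR). All GABA libraries were lower, and control replicate 3 was the highest. EIF2S3, the gamma subunit, had 1156, 1026 and 1141 CPM in the controls and 944, 1008 and 974 with GABA (-0.18 ± 0.06, adjusted p = 0.017). It did not pass without control replicate 1, GABA replicate 1 or GABA replicate 3 (adjusted p = 0.068, 0.081 and 0.052). EIF2D, which can deliver the initiator tRNA without eIF2, had 163, 158 and 155 CPM against 136, 128 and 123, with all GABA libraries below the controls (-0.30 ± 0.07, adjusted p = 0.0033). EIF2A, another protein that can bind initiator tRNA, had 275, 246 and 368 CPM in the controls and 248, 243 and 231 with GABA, with overlapping groups (-0.30 ± 0.12, adjusted p = 0.028). The log2 fold change of EIF2A was -0.12 without control replicate 3. It did not pass without any 1 of the GABA libraries (adjusted p = 0.058, 0.065 and 0.094, edgeR).

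EIF2B2, the beta subunit of eIF2B, had 95.5, 92.1 and 95.4 CPM in the controls and 123, 116 and 114 with GABA, with tight controls and no overlap (0.32 ± 0.08, adjusted p = 0.003, edgeR). Genes on the opposite strand overlap 23.6% of the exon bases of EIF2B2, and the strand setting of the counts is not known. EIF2B3, the gamma subunit, had 81.2, 78.5 and 82.9 CPM against 96.2, 104 and 88.0 (0.25 ± 0.09, adjusted p = 0.017), and did not pass without GABA replicate 1 or 2 (adjusted p = 0.051 and 0.093). EIF2AK2 (ENSG00000055332, chromosome 2, 37099210 to 37157065 in GENCODE release 29) encodes PKR, the kinase that phosphorylates eIF2 alpha in response to double-stranded RNA, and is itself induced by interferon. It had 297, 295 and 317 CPM in the controls and 221, 239 and 223 with GABA, and all GABA libraries lay below the controls, at 0.75 times their level (-0.41 ± 0.07, adjusted p = 3.2e-04, edgeR). The other eIF2 alpha kinases are not among the genes analysed here.

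Subunits of eIF3, the large scaffold that holds the 40S subunit and the mRNA together, did not move one way, with 3 of 5 higher, 1 lower and 1 not passing. EIF3F, a subunit with a deubiquitinase fold, had 674, 632 and 621 CPM in the controls and 705, 770.3 and 719 with GABA (0.19 ± 0.06, adjusted p = 0.014, edgeR). EIF3K, one of the smallest subunits, had 199, 196 and 201 CPM against 224, 218 and 236 (0.18 ± 0.06, adjusted p = 0.017). Both rose with no overlap between the groups. Neither passed in every fit, as the adjusted p was 0.081 for EIF3F without GABA replicate 2 and 0.08 for EIF3K without GABA replicate 3 (edgeR). EIF3G, which contacts the mRNA during scanning, had 221, 232 and 159.9 CPM in the controls and 249.7, 264 and 262 with GABA (0.34 ± 0.11, adjusted p = 0.013, edgeR). Control replicate 3 was again the low library, and without it the log2 fold change was 0.19 (adjusted p = 0.0022). EIF3J, a loosely bound subunit at the decoding site, had 215, 216 and 243 CPM against 191, 182 and 189.5 and fell (-0.26 ± 0.07, adjusted p = 0.0059). EIF3E was at -0.18 (adjusted p = 0.059), with overlapping groups, at -0.07 without control replicate 3, and passed without control replicate 2 (-0.27, adjusted p = 0.0066).

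Of the factors at the mRNA cap, EIF4B and EIF4E2 are listed and both fell. EIF4B, which stimulates the helicase eIF4A, had 1879, 1850.1 and 1687 CPM in the controls and 1552, 1547 and 1489 with GABA, below every control (-0.24 ± 0.06, adjusted p = 0.0045, edgeR). EIF4E2, a cap-binding protein that can repress translation, had 86.7, 82.6 and 71.9 CPM against 66.2, 67.6 and 63.3 (-0.29 ± 0.09, adjusted p = 0.012). It did not pass without control replicate 1 or GABA replicate 3 (adjusted p = 0.055 and 0.051, edgeR). The cap-binding eIF4E, the eIF4G scaffolds, the eIF4A helicases and the 4E-BP inhibitors are not among the genes analysed here.

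**Figure D4:**
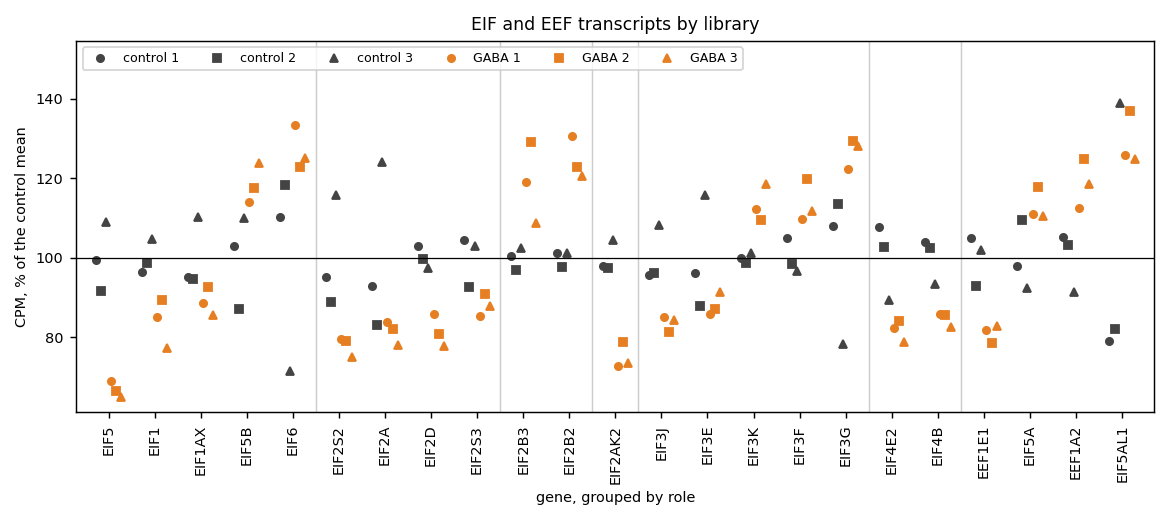
Level of each EIF and EEF transcript in each library as a percentage of its control mean (CPM); dark points are the 3 control and orange points the 3 GABA libraries, with 1 symbol per replicate number, and vertical lines separate the roles in the order start codon and joining, eIF2, eIF2B, eIF2 alpha kinase, eIF3, cap and elongation. EIF5 has the lowest GABA points, near 67% of the control mean, and control replicate 3 lies far below the other controls in EIF6 and EIF3G and far above them in EIF2A and EIF5AL1.

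Elongation genes were mixed. EEF1A2, the isoform of the tRNA-delivering factor typical of muscle and nerve, had 275, 269.6 and 239 CPM in the controls and 294, 326 and 309.6 with GABA, all above the controls (0.25 ± 0.07, adjusted p = 0.0088, edgeR). EIF5A, which relieves stalls at prolines and carries the amino acid hypusine, had 1569, 1757 and 1482 CPM against 1781, 1889.7 and 1771 (0.18 ± 0.07, adjusted p = 0.027). It did not pass without control replicate 1 or without any 1 of the GABA libraries (adjusted p = 0.084, 0.061, 0.11 and 0.051, edgeR). EIF5AL1, a near-copy of EIF5A whose reads are uncertain for that reason, had 43.2, 44.9 and 76.1 CPM in the controls and 68.9, 74.9 and 68.3 with GABA. Control replicate 3 of EIF5AL1 lay above every GABA library and the other controls below every one, and the log2 fold change was 0.37 with it (adjusted p = 0.056) and 0.68 without it (adjusted p = 2.2e-07, edgeR). Without control replicate 1 or 2 it was 0.22 and 0.24 (adjusted p = 0.24 and 0.18). EEF1E1, a scaffold protein of the tRNA synthetase complex despite its symbol, had 42.8, 37.9 and 41.6 CPM in the controls and 33.4, 32.0 and 33.8 with GABA (-0.30 ± 0.10, adjusted p = 0.015). It did not pass without control replicate 1 or GABA replicate 2 (adjusted p = 0.055 and 0.054, edgeR).

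Control replicate 3 differed from the other controls in a way that varied by gene. Its CPM was 0.63 to 1.73 times the mean of control replicates 1 and 2 over the members, below 0.8 times in 4 (EIF6, RPL23A, EIF3G and RPS15A) and above 1.2 times in 8. The GC content of the principal transcript had a median of 54.2% in the factor genes that rose and 42.2% in those that fell, with the ranges 38.6% to 66.4% and 35.1% to 52.8% overlapping. In ribosomal genes the medians were 48.1% for the 3 that rose and 47.9% for the 24 that fell. The part of GC content, of mitochondrial content and of control replicate 3 in these differences was not tested beyond the values given without that library. In that fit 26 ribosomal genes fell and 2 rose, and 11 factor genes fell and 10 rose, with medians of -0.21 and -0.09. Of all tested genes 2399 fell and 2336 rose in the same fit, and their median was -0.12, against -0.18 with all libraries.

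Other genes of translation, from lists written for this comparison, did not all follow the ribosomal proteins. Only genes of the preselected count tables could enter, and all list genes that these tables hold were tested. Of all tested genes 47.6% were higher and 51.2% lower with GABA, with a median of -0.18. No list was tested as a set. In the list of 23 cytosolic tRNA synthetases, which charge tRNAs with amino acids, and scaffold proteins of their complex, 14 were tested, 11 fell, 2 rose and 1 did not pass, with a median of -0.26. One of those that fell was the scaffold protein AIMP1, at -0.28, which charges no tRNA. IARS1 (isoleucine) had -0.61 ± 0.06 and YARS1 (tyrosine) -0.47 ± 0.06, while AARS1 (alanine) rose by 0.52 ± 0.08. Mitochondrial ribosomal proteins, which build a separate ribosome, had 7 of 10 genes higher and 3 lower, with a median of 0.30. MRPL17 rose by 0.42 ± 0.09, MRPL49 by 0.29 ± 0.07 and MRPL23 by 0.76 ± 0.20, the last with an adjusted p of 0.054 without control replicate 3 (edgeR). The difference between the mitochondrial and cytosolic sets was not tested.

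Of 16 genes of termination, recycling and ribosome rescue, 6 were tested, 3 higher and 3 lower. GCN1, which senses collided ribosomes, and ZNF598, which marks them with ubiquitin, rose by 0.36 ± 0.07 and 0.32 ± 0.09, and GTPBP2, a rescue GTPase, fell by 0.65 on the log2 scale. In the mTORC1 and cap signalling list, 8 of 27 genes were tested, 4 higher, 3 lower and 1 not passing. MLST8, a subunit of the mTOR complexes, rose by 0.57 ± 0.09, and the mTORC1 inhibitor DDIT4 fell by 1.20. MKNK2, a kinase of eIF4E, had -1.30 ± 0.10. All 5 tested genes of 9 in the integrated stress response list fell, in a preselected set where 51.2% of all tested genes fell. Among them DDIT3 was at -0.83, TRIB3 at -0.35 and ATF3 at -0.49 on the log2 scale. ATF3 did not pass without control replicate 3 (adjusted p = 0.093, edgeR). The poly(A)-binding protein PABPC1 and its partners PAIP1 and PAIP2 had -0.17, -0.23 and -0.31. Of the 13 genes written into the list of mRNA end partners, only these 3 are in the count tables. PABPC1 was at -0.10 without control replicate 3 and did not pass without control replicate 1 or any 1 of the GABA libraries (adjusted p between 0.053 and 0.15, edgeR). Of 7 other ribosome-bound proteins, such as RACK1, none is among the genes analysed here.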

How the data were processed

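Deposited read counts per gene of 6 Huh7 RNA libraries were used, 3 control and 3 GABA. Per the submitters' processing notes, the authors used CASAVA 1.8 and Bowtie 0.12.2 with hg38; the counting program, annotation release and strand setting are not given in the sources used here. The 5187 deposited genes were matched to GENCODE release 29. Their order follows the p-values of this comparison, so counts of calls and adjusted p-values describe a preselected set. Genes passed filterByExpr (minimum count 10, total 15), were scaled by TMM and tested with edgeR 4.0.16 (robust quasi-likelihood, R 4.3.3), with Benjamini-Hochberg adjustment over 4981 genes and a threshold of 0.05. The standard error is the log2 fold change over the square root of the F statistic. On simulated counts the test found 72% of changes of log2 0.5 and 98% of log2 1, and called 0.127% of unchanged genes. The simulation had a fixed dispersion, few changed genes and no outlying library, unlike these data. Its rates therefore check the code and do not give the power or error rate for the members. Members and lists were chosen with earlier results of these data known. The values of 1 member, which stays in all counts, are not reported here; every other member is described by role, with values per library for up to 4 genes of smallest p per role and for those against their group, and up to 3 genes of smallest p per list; pseudogenes were named after their values were seen. The labels name biological replicates and do not say that cultures were separate, so p-values measure the spread between these libraries. Start windows came from RefSeq for 44 of 54 members. Same-numbered libraries were checked for shared deviations. Alternatives were other scalings, no filter, DESeq2 1.42.0, limma-voom (limma 3.58.1), a replicate block, each library left out and, chosen after seeing the data, a scaling set to the order of the files and sums with pseudogenes.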

Additional observations from a re-analysis of the deposited data

How the results depend on the processing

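Of 864 values of the 54 members under 16 alternative settings, 769 kept direction and call, 73 lost the call, 21 gained it and 1 reversed. The reversal was RPL36A, at 0.22 when summed with its pseudogene, a setting chosen after seeing the data. Ribosomal genes called numbered 27, and 22 with DESeq2 size factors in edgeR, 20 with DESeq2 and 31 with the scaling set to the order of the files, which was also chosen after seeing the data. For EIF and EEF genes these counts were 21, 19, 19 and 22. With DESeq2, 3 ribosomal genes were higher and 17 lower, 10 EIF or EEF genes higher and 9 lower, and of all genes 2485 higher and 2048 lower (4533 called), against 2369 and 2549 in the fit reported. With each library left out in turn, all genes called ranged from 4025 to 4735, ribosomal genes from 19 to 28, EIF and EEF genes from 13 to 21 and members from 32 to 49, with fewer samples in each fit. The difference in the ribosomal share ranged from -0.59 to -0.48 percentage points in those fits, and was -0.65 when mitochondrially encoded genes were left out of the total. With the replicate block, 27 ribosomal and 22 EIF or EEF genes were called, and 4823 of all genes. The correlations of same-numbered libraries' deviations were 0.00, -0.09 and -0.04, so no clear shared deviation was seen. With so few libraries this cannot show whether same-numbered libraries were prepared together, and the labels do not say. Counts were lowest for RPL36A, at 152 to 207 per library, which limits its precision.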
